A study of Homo sapiens with 4 samples.

Results

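The genes described here encode the proteins of the cytosolic ribosome, measured by RNA sequencing in the human glioma cell line GBM8401 and in a line derived from it that is resistant to temozolomide (TMZ), the alkylating drug used against glioblastoma. The family was chosen with earlier results of these data known, and its members were then taken by name. The rule took protein-coding genes whose symbol begins with RPL or RPS followed by a digit. RPLP0, RPLP1, RPLP2, RPSA and FAU were added, and the RPS6K kinases were left out. The names matched 92 genes, of which RPS18, RPL10L and RPS4Y2 were at 0 in all 4 libraries, which left 89 of the 58219 gene IDs in the deposited table. Of these, 46 were canonical large-subunit genes, 31 were canonical small-subunit genes, 8 were paralogs, 3 were readthrough genes that join a ribosomal protein gene to its neighbour, and 1, RPS19BP1, encodes a protein that binds RPS19 and is no ribosomal protein.

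A ribosome is built of a small subunit, which reads the messenger RNA, and a large subunit, which forms peptide bonds and releases the growing chain through its exit tunnel. Most of its proteins are present in a single copy per ribosome. They are made in the cytoplasm, carried into the nucleus by importins and dedicated chaperones, and assembled there on ribosomal RNA. Their messenger RNAs usually begin with a C and an unbroken run of pyrimidines, the 5′ terminal oligopyrimidine (TOP) motif, through which mTOR signalling and the RNA-binding protein LARP1 control their translation and stability as a group.

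The resistant cells were raised from GBM8401 in medium with 200 µM TMZ, renewed over 140 days, and the parental cells are the same line labelled as parental. Both were kept in RPMI1640 with fetal bovine serum, and the sources used here do not give whether TMZ was still present when the resistant cells were harvested. The resistant group holds 2 libraries and the parental group holds 2, all from total RNA prepared with a strand-specific kit. The labels call the replicates biological, but both resistant libraries come from 1 derived line, so that p-values measure the spread between these cultures and not between separately derived lines.

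The deposited values, scaled fragments per gene, summed to 23163310 and 24225039 in the resistant libraries and to 24791254 and 25832511 in the parental libraries. The log2 values of the 2 resistant replicates correlated with r = 0.991 across genes, and those of the 2 parental replicates with r = 0.989. Of 13 markers of glioma or astroglia, GFAP, S100B and AQP4 were below 10 in every library. ALDH1L1 and SLC1A3 of the same list were present. ALDH1L1 had 626 and 712 in resistant cells, against 444 and 509 in parental cells. SLC1A3 had 4312 and 4189 in resistant cells, against 2853 and 3275 in parental cells. EGFR, often amplified in glioma, had 10958 and 11844 in resistant cells and 10605.5 and 12445 in parental cells. The summed level of that list was 81876 and 90521 in resistant cells, against 118108 and 124993 in parental cells, where VIM, NES and CD44 fell while ALDH1L1 and SLC1A3 rose in resistant cells. The sum of 6 epithelial markers was 35277 and 36943 in resistant cells, against 18708 and 20555 in parental cells, with KRT8 and KRT18 as the 2 genes that rose. The sum of 6 neuronal markers was 310.3 and 352 in resistant cells, against 201 and 216 in parental cells. Only RBFOX3 was called, with 190 and 187 in resistant cells, against 57.8 and 66.9 in parental cells. The other 4 tested were not, and the median log2 fold change of the list was -0.04. Hematopoietic markers, 7 in number, summed to 1041 and 1093 in resistant cells, against 672 and 616 in parental cells. Of 4 tested only CD68 was called, with 887 and 966 in resistant cells, against 520 and 500 in parental cells. The sum of 6 endothelial markers was 553 and 455 in resistant cells, against 906 and 992 in parental cells. CDH5 and TIE1 were lower, and the other 3 tested, PECAM1 among them at a log2 fold change of 0.25, were not called. For 6 oligodendrocyte markers the sum was 3493 and 3565 in resistant cells, against 4359 and 4474 in parental cells. CNP was lower, the other 2 tested were not called, and MOG was at 0 in all libraries. The 6 fibroblast markers, none of them called, summed to 13307 and 10809 in resistant cells and to 12735 and 9936 in parental cells. The part of these markers in the results was not tested. In a bulk culture, a change in the mix of cells and a change in the RNA per cell cannot be told apart, and every value is a level relative to the rest of its library.

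The first bases of the transcripts are shown for the genes on which the results turn, because the TOP motif is what ribosomal protein genes share beyond their name. Each line gives 20 bases before and 20 bases from the start annotated by RefSeq on GRCh38.p14, read on the strand of the gene, with any TOP run in capitals. A TOP run was taken as a C at the annotated start followed by at least 4 more C or T bases without a break, searched on the sense strand at that base alone.

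RPL12 lies on the minus strand at chr9:127451387-127451426 and was the gene with the largest fold change of the canonical genes. The windows of RPL13A (plus strand, chr19:49487588-49487627), RPL28 (plus strand, chr19:55385912-55385951) and RPLP1 (plus strand, chr15:69452798-69452837) stand for large-subunit genes with a run that rose, and those of RPS24 (plus strand, chr10:78033843-78033882) and RPS3 (plus strand, chr11:75399498-75399537) for the small subunit. RPL3 of the large subunit also rose (log2 fold change 0.49), held no run at the annotated base and is not printed.
RPL12: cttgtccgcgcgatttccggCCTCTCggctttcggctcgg
RPL13A: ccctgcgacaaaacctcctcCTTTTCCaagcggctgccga
RPL28: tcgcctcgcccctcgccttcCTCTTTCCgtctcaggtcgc
RPLP1: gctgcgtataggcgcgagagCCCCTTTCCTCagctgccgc
RPS24: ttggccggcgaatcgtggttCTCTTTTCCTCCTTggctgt
RPS3: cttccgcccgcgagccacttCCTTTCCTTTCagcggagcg

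The windows of 3 canonical genes without a run at the annotated base are those of RPS29 (minus strand, chr14:49598691-49598730) and RPS4X (minus strand, chrX:72277229-72277268), both of which rose, and RPS26 (plus strand, chr12:56041898-56041937), whose fold change was the lowest.
RPS29: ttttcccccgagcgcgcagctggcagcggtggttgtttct
RPS4X: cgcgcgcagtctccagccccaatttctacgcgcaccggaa
RPS26: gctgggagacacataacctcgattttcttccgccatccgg

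The paralogs are shown because they moved in both directions. RPL22L1 (minus strand, chr3:170870176-170870215) and RPS27L (minus strand, chr15:63157458-63157497) were higher in resistant cells, and RPL26L1 (plus strand, chr5:172958709-172958748), RPL36AL (minus strand, chr14:49620607-49620646) and RPL7L1 (plus strand, chr6:42879596-42879635) were lower.
RPL22L1: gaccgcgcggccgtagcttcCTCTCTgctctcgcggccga
RPS27L: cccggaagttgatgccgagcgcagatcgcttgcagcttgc
RPL26L1: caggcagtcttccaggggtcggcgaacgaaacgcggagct
RPL36AL: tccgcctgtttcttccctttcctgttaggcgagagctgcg
RPL7L1: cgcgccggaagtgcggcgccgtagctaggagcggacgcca

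A TOP run was found at an annotated start in 46 of the 62 canonical genes above 0 with an entry in the promoter table (74.19%), in 28 of 38 large-subunit genes and in 18 of 24 small-subunit genes. Its length over these 46 genes was 5 to 19 bases, with a median of 8. Over the whole promoter table, 4.07% of 35116 entries and 5.14% of 27305 genes held such a run. Of the 5 tested paralogs only RPL22L1 held one at the annotated start. In RPL36AL a run of C and T bases crosses that start and was not counted.

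Messenger RNAs for canonical ribosomal proteins were more abundant in the resistant cells, in both subunits and by a modest and similar amount. Together they made up 3.12% and 3.13% of the 2 resistant libraries, against 2.40% and 2.33% of the 2 parental libraries, and the ratio of the means was 1.32. A share is scaled to the library total and weighs abundant genes most. The fold changes per gene below come from the deposited values without that scaling, so the sizes are not directly comparable. The groups did not overlap, and the replicates of each line lay far closer to each other than to the other line. The share of large-subunit genes was 2.12% and 2.14% in resistant cells, against 1.62% and 1.58% in parental cells. The share of small-subunit genes was 1.001% and 0.994% in resistant cells, against 0.780% and 0.746% in parental cells. The summed value of the large subunit was 2.12 and 2.15 times that of the small subunit in resistant cells, against 2.07 and 2.12 times in parental cells, so this ratio overlapped between the groups.

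**Figure D1:**
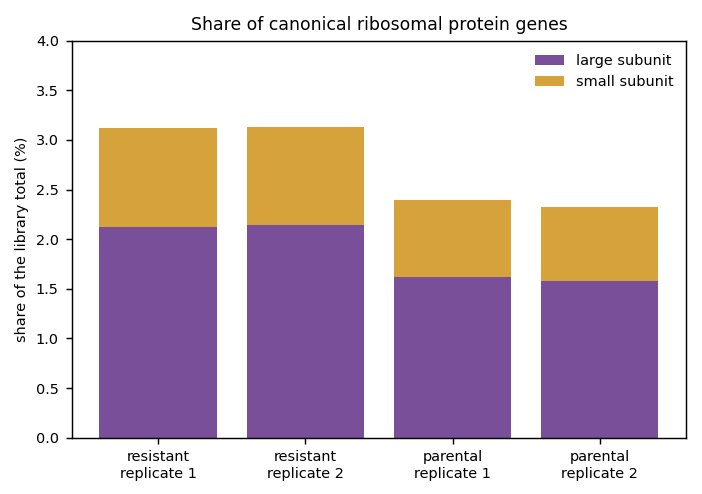
Each bar is 1 library, with the share of its deposited total (percent) taken by canonical large-subunit and small-subunit genes stacked. The resistant bars reach 3.12% and 3.13% and the parental bars 2.40% and 2.33%, with both colours taller in the resistant libraries.

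Of the 83 members that passed the filter on low values, 50 rose and 4 fell in resistant cells at an adjusted p under 0.05 (limma on log2(value + 1), Benjamini-Hochberg over 16132 genes). Over all genes tested, 16.2% rose and 20.9% fell. Among the 75 canonical genes tested, 48 rose: 28 of 46 in the large subunit and 20 of 29 in the small subunit. None of the canonical genes fell in limma at that threshold, and 1, RPS26, was lower at an unadjusted p under 0.05, against 57 that were higher at that level. Among genes with a mean value of at least 1000, 15.1% rose and 35.2% fell.

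The log2 fold change was above 0 in 73 of the 75 canonical genes, RPL7A and RPS26 being the exceptions. Its median was 0.28 in the large subunit and 0.27 in the small subunit, against -0.02 over all genes tested and -0.12 over genes with a mean of at least 1000. The middle 50% of the canonical genes lay between 0.21 and 0.39, and that of all genes between -0.32 and 0.32. Both resistant libraries stood above both parental libraries in 38 of 46 large-subunit genes and 24 of 29 small-subunit genes, against 32.2% of all genes tested. The genes that rose did so by 1.14-fold to 1.68-fold, and 21 of the 48 rose by at least 1.3-fold.

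Without resistant replicate 2, 20 of the 83 members rose (10 large and 8 small; 24.1%), beside 8.59% of all genes in that fit. Without resistant replicate 1, 37 members rose (13 of them small-subunit genes; 44.6%), beside 9.69% of all genes. With limma moderated without a trend or robust weights, 11 members rose (13.3%), close to the 10.98% of all genes that rose in that fit. With each library scaled to its own total, 65 members rose (78.3%) and 2 fell, beside 22.7% of all genes that rose, and the genes that rose made up 56.93% of all genes called instead of 43.75%.

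**Figure D2:**
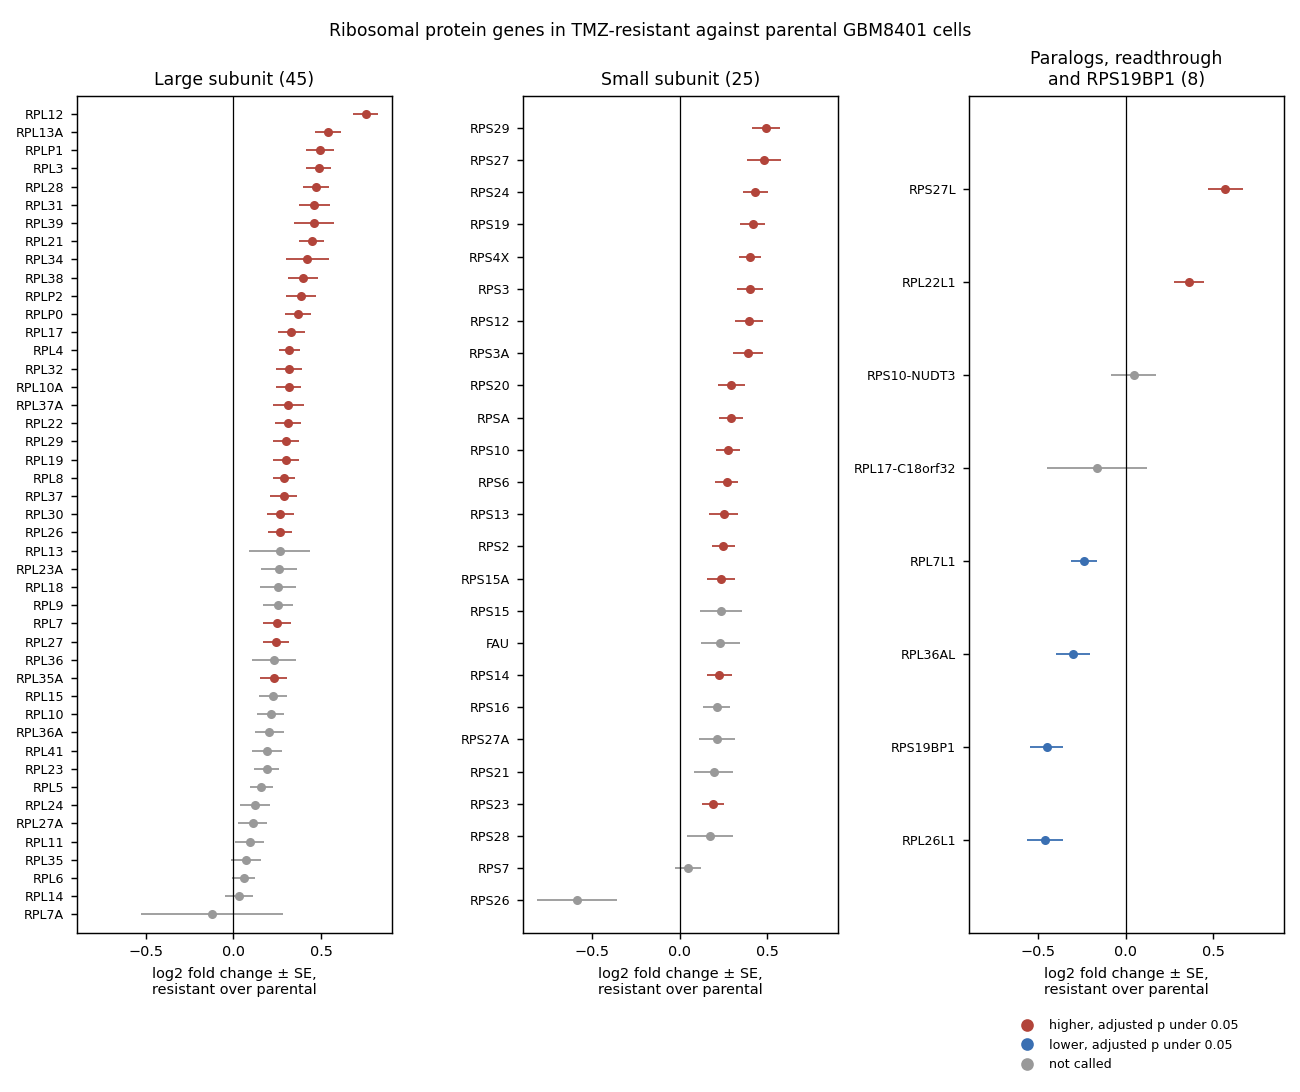
Points give the log2 fold change of resistant over parental cells and bars its standard error, for 45 large-subunit genes, 25 small-subunit genes and the other 8 members tested. Red marks genes that rose and blue genes that fell at an adjusted p under 0.05; 68 of the 70 canonical genes plotted lie right of 0, and the 4 blue points are all in the third panel.

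In the large subunit the clearest rise was in RPL12, which with the P proteins forms the base of the stalk that recruits and activates translation factors. RPL12 had values of 21799.6 and 23689 in resistant cells, against 13540.5 and 13450.2 in parental cells. Both resistant cultures were far above both parental ones, and the difference exceeded the spread within either pair. Its log2 fold change was 0.75 (SE 0.07, adjusted p 2.03e-04 in limma), a 1.68-fold rise. The other stalk genes rose as well: RPLP1 by 0.49, RPLP0, the scaffold of the stalk, by 0.37, and RPLP2 by 0.38 on the log2 scale. RPLP1 had 6716 and 7452 in resistant cells, against 4887 and 5164 in parental cells, with no overlap between the groups. All 4 stalk genes were called, beside 64% of all canonical genes tested, and a count over 4 genes does not set them apart. Their median was 0.44, beside 0.27 for all canonical genes.

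RPL13A, a surface protein also known as a repressor of inflammatory messenger RNAs when released from the ribosome, had 35500 and 38982 in resistant cells, against 24933 and 26330.5 in parental cells. The groups were well apart, with a log2 fold change of 0.54 (SE 0.07, adjusted p 9.62e-04 in limma). RPL28 and RPL21, both structural proteins of the large subunit, rose by 0.47 and 0.44 on the log2 scale. RPL28 had 9161 and 9892 in resistant cells, against 7100.1 and 6651 in parental cells. RPL21 had 4310.4 and 4324 in resistant cells, against 3201 and 3144 in parental cells, the closest replicates of the genes given here in full for this subunit. RPL13A shares its position with the gene AC010619.2 on the same strand and RPL28 with UBE2S on the opposite strand, so that fragments may be shared between them.

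RPL3, which reaches toward the catalytic centre where peptide bonds are made, had 43903 and 43705 in resistant cells, against 29805 and 32825 in parental cells. All resistant values were above the parental ones, and the log2 fold change was 0.49 (SE 0.07, adjusted p 0.00132 in limma). RPL8, another protein near that centre, rose by 0.29 (adjusted p 0.00939). RPL10, which joins the subunit late in its assembly, had 7418 and 8015 in resistant cells and 6451 and 6877 in parental cells, and its log2 fold change of 0.21 did not pass the threshold (adjusted p 0.0587).

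Around the exit tunnel, through which the new chain leaves, 7 of 9 genes rose (77.8%), beside 64% of all canonical genes tested. The median log2 fold change of the 9 was 0.31. RPL31 (0.46), RPL39 (0.46), RPL17 (0.33), RPL4 (0.32), RPL22 (0.31), RPL19 (0.30) and RPL26 (0.26) were called. RPL23A and RPL35 were not, with log2 fold changes of 0.26 and 0.07. Further large-subunit genes that rose included RPL34, RPL38, RPL32, RPL10A, RPL37A, RPL29, RPL37, RPL30, RPL7, RPL27 and RPL35A, with log2 fold changes between 0.23 and 0.42.

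The large-subunit genes not called numbered 18, RPL10, RPL23A and RPL35 among them. RPL9, RPL15, RPL23, RPL18, RPL36A, RPL5 and RPL41 kept both resistant libraries above both parental ones, with log2 fold changes between 0.16 and 0.25, and RPL6 did so at 0.06. RPL36, RPL13, RPL24, RPL27A, RPL11 and RPL14 overlapped between the groups, with log2 fold changes between 0.03 and 0.26. RPL13 varied most between replicates, with 11970 and 15287 in resistant cells and 9669 and 13161 in parental cells.

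In the small subunit the genes with the smallest adjusted p were RPS4X, RPS29, RPS24, RPS19, RPS3 and RPS12. RPS4X, the X-linked copy of a protein of the body of the subunit, had 19727 and 19932 in resistant cells, against 15048 and 14974 in parental cells. The 2 cultures of each line were nearly equal and the lines were apart, with a log2 fold change of 0.40 (SE 0.06, adjusted p 0.00196 in limma). RPS29, a small zinc-binding protein of the head, had 1799 and 1842 in resistant cells, against 1283 and 1306 in parental cells. Its log2 fold change was 0.49 (SE 0.08, adjusted p 0.00214 in limma), without overlap. RPS4X overlaps PIN4 and RPS29 overlaps LRR1 on the opposite strand.

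RPS24 and RPS19 are genes whose loss of 1 copy causes Diamond-Blackfan anaemia, an inherited failure of red cell production. RPS24 had 8872 and 8975 in resistant cells, against 6862 and 6387 in parental cells, and rose by 0.43 on the log2 scale (adjusted p 0.00234). RPS19 had 5567 and 5736 in resistant cells, against 4131 and 4345 in parental cells, and rose by 0.42 (adjusted p 0.00296). Both genes separated the lines without overlap. Of the 19 members listed for that disease, 10 rose (52.6%), beside 64% of all canonical genes tested. Their median log2 fold change was 0.24, below that of all canonical genes at 0.27.

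In the head of the small subunit, which guides the messenger and transfer RNAs, 7 of 12 tested genes rose (58.3%). Over all canonical genes tested, 64% rose. The head genes that rose included RPS29, RPS19, RPS3, RPS12, RPS10 and RPS20. RPS3, at the entry of the messenger RNA channel and also known in DNA repair, had 12542 and 13564 in resistant cells, against 9754 and 10004 in parental cells. RPS12 had 4349 and 4635 in resistant cells, against 3538 and 3286 in parental cells. Both rose by 0.40 on the log2 scale, with adjusted p of 0.00323 for RPS3 and 0.00532 for RPS12, and neither overlapped. RPS16, RPS27A, RPS15 and RPS28 were not called, with log2 fold changes between 0.17 and 0.23. RPS2 rose by 0.25 on the log2 scale. On the platform and around the exit of the messenger RNA, RPS3A (0.39), RPSA (0.29) and RPS14 (0.22) rose, RPS21 had a log2 fold change of 0.20 and was not called, and RPS26 went the other way.

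RPS26, which contacts the messenger RNA just upstream of the codon being read, was the one canonical gene with both resistant libraries below both parental libraries, a pattern held by 36.4% of all genes tested. It had 1559 and 938 in resistant cells, against 1903 and 1725 in parental cells. The 2 resistant cultures differed from each other more than the parental ones did. Its log2 fold change of -0.58 (SE 0.23) did not pass the threshold (adjusted p 0.0968 in limma). Its size rested on single resistant libraries: without resistant replicate 1 the value was -0.95 (adjusted p 5.86e-04), and without resistant replicate 2 it was -0.22 (adjusted p 0.255). An antisense transcript, AC034102.3, overlaps RPS26.

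**Figure D3:**
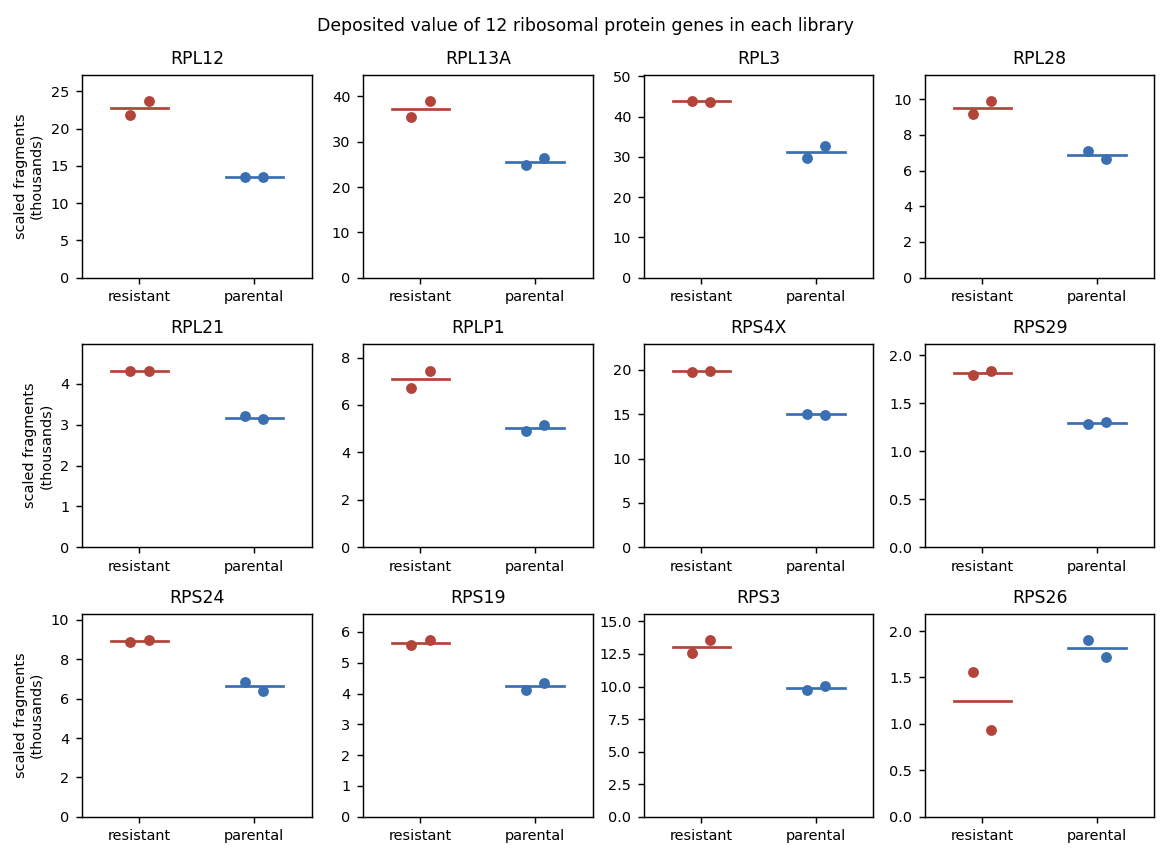
Deposited values (scaled fragments, divided by 1000) of 12 genes in each library, resistant left and parental right, with the mean of the 2 libraries as a line and each axis starting at 0. In the first 11 panels both resistant points lie above both parental points, and in the RPS26 panel both lie below.

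Further small-subunit genes that rose included RPS27 (0.48), RPS6 (0.27), RPS13 (0.25), RPS15A (0.24) and RPS23 (0.19 on the log2 scale). RPS6 is the protein phosphorylated by the S6 kinases downstream of mTOR. FAU, whose product is a ubiquitin-like fusion to a ribosomal protein, had a log2 fold change of 0.23 and was not called (adjusted p 0.137), and RPS7 had 0.05. RACK1, a ribosomal protein whose name lies outside the rule, was not called either, with a log2 fold change of 0.15.

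Divided by transcript length, the most abundant members were RPL8, with 42463 per kilobase in resistant cells and 34792 in parental cells, then RPL12, with 40184 in resistant cells and 23843 in parental cells. RPS2 and RPSA were the highest of the small subunit, with 31928 and 19979 per kilobase in resistant cells, against 26861 and 16306 in parental cells. RPS2, RPL7 and RPL13A have many processed pseudogenes, and the values of annotated pseudogenes came to 43.7%, 53.1% and 15.8% of the mean value of these genes. With pseudogene values added, 51 members rose and 4 fell. RPL36A in the large subunit and RPS26 in the small subunit were among the lowest, with 2394 and 1095 per kilobase in resistant cells, against 2077 and 1591 in parental cells.

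RPL7A was lowest of the tested members, with values of 9.8 and 11.9 in resistant cells and 12.2 and 11.5 in parental cells, whereas its pseudogene RPL7AP6 had 3467 and 4071 in resistant cells and 3069 and 2505 in parental cells. RPS9 and RPS25 were at most 4.1 in any library and RPS18 at 0 in all, although their proteins belong to every cytosolic ribosome. Genes that share their positions, such as TRAPPC4 with RPS25 and VPS52 with RPS18, were also listed at 0. These 4 genes are therefore reported as listed at or near 0, and no level of expression is read from them. The members that were not tested are RPS9, RPS25, RPL3L, RPL39L, the readthrough gene RPL36A-HNRNPH2 and RPS4Y1, a Y-linked gene for which no level is given. The tested genes other than RPL7A had at least 213 in every library, so none passed the filter through 1 group alone.

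Across the 75 canonical genes the log2 fold change had a Pearson r of -0.148 and a Spearman rho of -0.108 with log2 transcript length, and 0.083 and 0.075 with GC content. With the log2 mean value r was 0.299 and rho 0.111. These are descriptions over genes that share the same 4 libraries. After a correction for GC content and length fitted over all genes, 18 large-subunit and 14 small-subunit genes rose, and the medians were 0.21 and 0.17. Genes that rose lay on 20 of the 21 chromosomes that carry a tested canonical gene.

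Canonical genes rose both with and without a TOP run at the annotated base. A run that begins at another base was not searched for, so a gene without a run here may still carry the motif. Whether TOP control had a part in the rise was not tested. Of 44 tested genes with a run at the annotated start, 28 rose, with a median log2 fold change of 0.27. Of 16 with an entry and no run, 9 rose, with a median of 0.28, and of 15 without an entry in the promoter table, 11 rose. RPS29 and RPS4X, printed above without a run, were among those that rose most clearly. Between the length of the run and the fold change, r was -0.058 and rho 0.028 over the 44 genes. Outside the ribosomal protein genes, 161 of 719 coding genes with a run rose (22.39%) and 142 fell, against 1467 that rose (15.26%) and 2396 that fell (24.92%) among 9613 without one.

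The 8 other members tested moved in both directions: 2 rose (25%), 4 fell (50%) and 2 were not called, with a median log2 fold change of -0.20. Over all genes tested 16.2% rose and 20.9% fell, and 35.2% of genes with a mean of at least 1000 fell. RPS27L, a paralog of RPS27, had 1127 and 1221 in resistant cells, against 751 and 836 in parental cells. It rose by 0.57 on the log2 scale (SE 0.10, adjusted p 0.00303 in limma), without overlap, and LACTB overlaps it on the opposite strand. RPL22L1, a paralog of RPL22, had 3106 and 2943 in resistant cells, against 2501 and 2219 in parental cells, and rose by 0.36 (adjusted p 0.0130). In limma without a trend or robust weights RPL22L1 was not called (adjusted p 0.0893). With 1 library left out its log2 fold change was 0.27 to 0.45, and its call did not hold in every such fit.

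RPL26L1, a near copy of RPL26, had 608 and 680.3 in resistant cells, against 862 and 903.5 in parental cells. It fell by 0.46 on the log2 scale (SE 0.10, adjusted p 0.00925 in limma), and the antisense gene AC008429.1 overlaps it. In limma without a trend or robust weights RPL26L1 was not called (adjusted p 0.0548). With 1 library left out its log2 fold change was -0.54 to -0.38, and its call did not hold in every such fit. RPL36AL, a retroposed copy of RPL36A, had 1234 and 1253 in resistant cells, against 1641 and 1427 in parental cells. RPL7L1, a relative of RPL7, had 7556 and 8108 in resistant cells, against 9406 and 9050.3 in parental cells. None of the 3 overlapped between the groups. RPL36AL fell by 0.30 (adjusted p 0.0375) and RPL7L1 fell by 0.24 (adjusted p 0.0321), and neither was called when each library was scaled to its own total (adjusted p 0.126 and 0.140). RPL7L1 also lost its call without any 1 of the 4 libraries (adjusted p 0.0513 to 0.204), and RPL36AL lost it without parental replicate 1 or either resistant replicate (adjusted p 0.125 to 0.168).

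As a share of the paralog and its relative, both per kilobase, RPL26L1 made up 5.15% and 5.84% in resistant cells, against 8.42% and 9.04% in parental cells. RPL36AL made up 41.6% and 40.5% of its pair in resistant cells, against 52.1% and 47.3% in parental cells. RPL7L1 made up 19.9% and 19.8% in resistant cells, against 27.1% and 24.4% in parental cells. In these 3 pairs the resistant shares lay below the parental ones without overlap. That follows from the values, since both resistant libraries were lower for the paralog and higher for its relative. Scaling by 1 factor per library would cancel in such a share. A share also drops when only the relative rises, so it does not test the fall of the paralog. RPL22L1 made up 44.2% and 42.9% in resistant cells and 43.3% and 42.1% in parental cells, and RPS27L made up 16.1% and 17.3% in resistant cells and 14.1% and 17.8% in parental cells, so that these 2 shares overlapped.

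**Figure D4:**
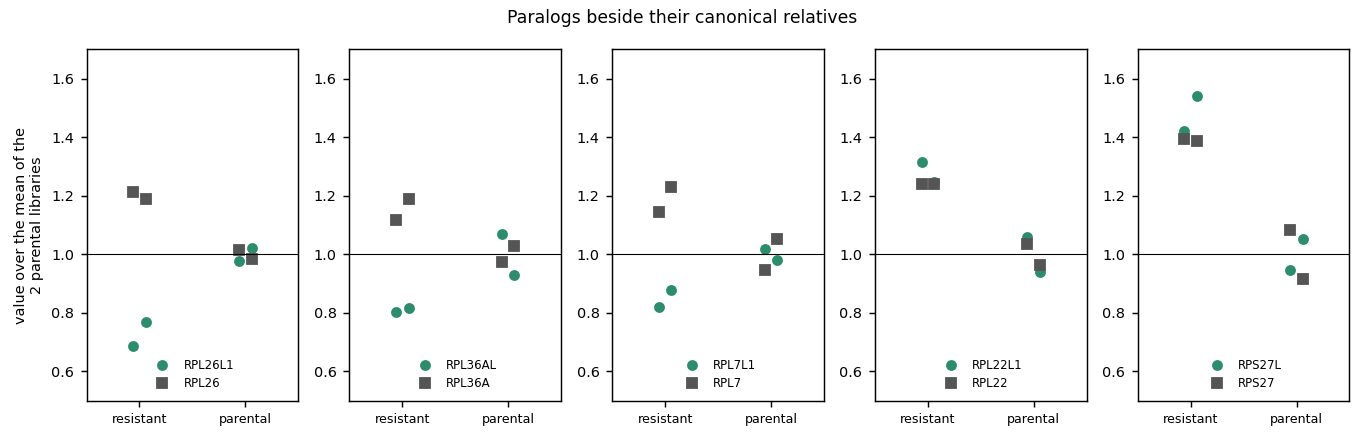
Values of 5 paralogs (circles) and their canonical relatives (squares) in each library, resistant left and parental right, each divided by the mean of its 2 parental libraries. In the first 3 panels the resistant circles lie below 1 and the resistant squares above 1; in the last 2 both lie above 1.

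RPS19BP1, which binds RPS19 and is also known as an activator of the deacetylase SIRT1, had 700.3 and 724 in resistant cells, against 957 and 990.5 in parental cells. It fell by 0.45 on the log2 scale (SE 0.09, adjusted p 0.00610 in limma), while RPS19 rose. The readthrough genes overlapped between the groups and were not called. RPL17-C18orf32 had 612 and 473 in resistant cells and 811 and 447 in parental cells, and RPS10-NUDT3 had 1608 and 1997 in resistant cells and 1586 and 1901 in parental cells.

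Genes that carry ribosomal proteins to the nucleus or into the ribosome were mostly lower in resistant cells. Of 17 chaperones and importers tested, 11 fell (64.7%) and none rose in limma, with 1 higher at an unadjusted p under 0.05. RPS19BP1, already counted among the members that fell, is also among these 11. Over all genes tested 20.9% fell, and 35.2% of genes with a mean of at least 1000 did. The median log2 fold change of the list was -0.39. IPO4, an importin, had 3450 and 3571 in resistant cells, against 5512 and 5646 in parental cells, and fell by 0.67 on the log2 scale (adjusted p 3.45e-04). RPF2, which with RRS1 docks the 5S particle on the large subunit, had 1311 and 1367 in resistant cells, against 2218 and 2199 in parental cells, and fell by 0.72 (adjusted p 3.91e-04). KPNB1, the main importin beta, fell by 0.63, and LTV1, which is needed to mature the head of the small subunit, fell by 0.67. None of these 4 overlapped between the lines.

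The mitochondrial ribosome has proteins of its own, encoded by other genes. Of 76 of these genes tested, 4 rose (5.26%) and 25 fell (32.9%), with a median log2 fold change of -0.18. The share that fell lies near the 35.2% of genes with a mean of at least 1000 and above the 20.9% of all genes. The median was -0.18 over 49 large-subunit genes and -0.19 over 27 small-subunit genes. MRPL35, MRPL15, MRPL47 and MRPS34, the 4 with the smallest adjusted p that the naming rule took, fell by 0.75, 0.63, 0.54 and 0.67.

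Other genes known for a TOP motif or a role in translation were more often higher than lower in resistant cells. Of 22 tested, 11 rose (50%) and 3 fell (13.6%), with a median of 0.21. Over all genes tested 16.2% rose and 20.9% fell, and with a mean of at least 1000 these shares were 15.1% and 35.2%. EEF1A1, the factor that delivers transfer RNA to the ribosome, had 261373 and 278197 in resistant cells, against 188726 and 189461 in parental cells, and rose by 0.51 (adjusted p 6.24e-04), but it was not called after quantile normalization (0.12, adjusted p 0.282). EIF4B, which helps to unwind messenger RNA, rose by 0.50 (adjusted p 7.24e-04). VIM, the filament protein, and LAPTM5, a lysosomal membrane protein, fell by 0.61 and 0.94, and NPM1, a nucleolar chaperone, fell by 0.22, a call lost with library-total scaling and without any 1 of the 4 libraries.

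**Figure D5:**
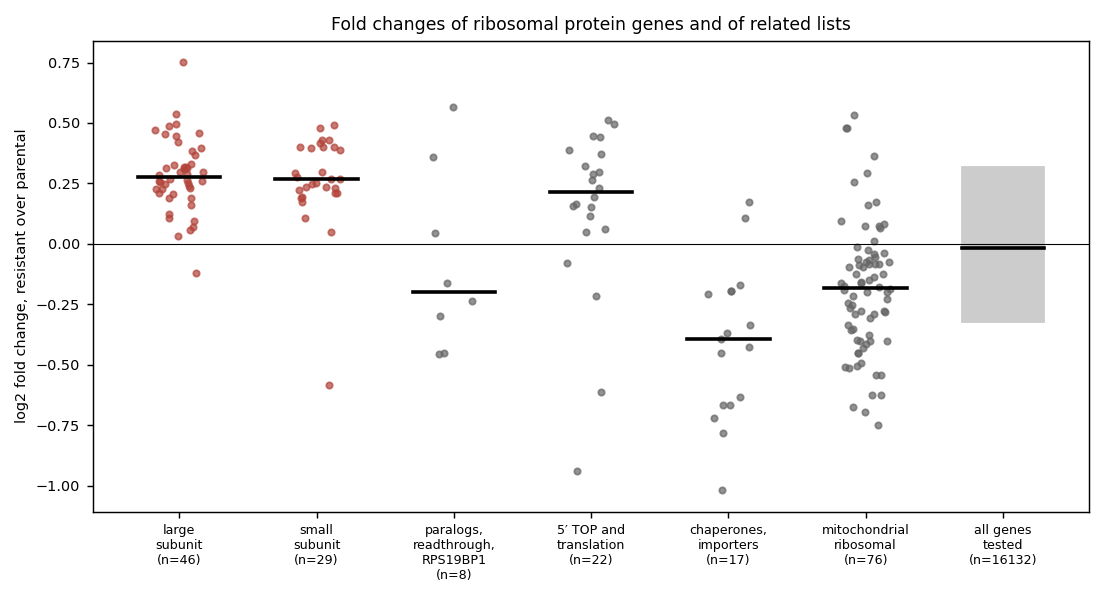
Each point is the log2 fold change of 1 gene, resistant over parental, with the median of each list as a black line; the grey box holds the middle 50% of all 16132 genes. Large-subunit and small-subunit genes have medians of 0.28 and 0.27, chaperones and importers -0.39, and mitochondrial ribosomal proteins -0.18.

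Among 19 regulators in the mTOR, LARP1 and MYC list, 5 rose and 5 fell (26.3% each), not far from the 16.2% and 20.9% over all genes tested, with a median of -0.08. SESN1, SESN2 and DEPTOR, known inhibitors of mTOR signalling, rose by 0.97, 1.12 and 1.11 on the log2 scale. DEPTOR had 311 and 318 in resistant cells, against 141 and 150.1 in parental cells. LARP1, which binds the TOP motif, had 15509 and 16977 in resistant cells, against 21832 and 22288 in parental cells, and fell by 0.44 (adjusted p 0.00209). Levels of messenger RNA do not measure the activity of this pathway.

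RPL5 and RPL11, which with 5S RNA bind the ubiquitin ligase MDM2, were not called. RPL5 had 12820 and 13244 in resistant cells, against 11718 and 11618 in parental cells, with a log2 fold change of 0.16 and no overlap (adjusted p 0.0917). RPL11 had 8439 and 7939 in resistant cells and 8165 and 7214 in parental cells, which overlapped (0.09, adjusted p 0.420). MDM2 itself rose by 0.47 on the log2 scale (adjusted p 0.00614). CDKN1A, a cell cycle inhibitor, had 9513 and 9666 in resistant cells, against 3194 and 3233 in parental cells, without overlap, and rose by 1.58 (adjusted p 1.36e-05).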

How the data were processed

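The authors deposited 1 table with 1 column per library, whose values are a signal: scaled fragments per gene, not whole and not divided by length. The submitters' processing notes name HISAT2 2.1.0, Cufflinks 2.2.1, Cuffdiff, Trimmomatic 0.36, SAMtools 1.2 and bcl2fastq, with build GRCh38.p10. With strand setting and scaling method not given in the sources used here, fragments of a gene, an antisense partner or a pseudogene may be mixed. The scaling affects every fold change, and other scalings were tried.

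Genes with a value of at least 10 in at least 2 libraries and a sum of at least 15 were tested in limma 3.58.1 (R 4.3.3) on log2(value + 1), with a mean-variance trend and robust moderation, two-sided, and Benjamini-Hochberg adjustment over 16132 genes; the code was tested on simulated data. This scale understates fold changes of low genes. Classes and lengths (median coding transcript) came from GENCODE 29, which held 57881 of the 58219 IDs, and promoters from RefSeq. The genes and lists were chosen with earlier results of these data known, and the lists and groups are described by counts and medians, with no set test. Genes were named by adjusted p within each subunit (6) and list (4), by level per kilobase, by role, or as paralogs; other members, RACK1 and NPM1 were named after their values were seen. Some genes enter the counts but are not reported here by name. Both resistant library totals lay below both parental ones, so that scaling to the total raises every fold change, and the lowest value of a tested member other than RPL7A was 213. The count-based tests planned as alternatives were not run, since whole fragments could not be recovered.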

Additional observations from a re-analysis of the deposited data

How the results depend on the processing

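Of 1665 values recomputed for 98 single genes, 1405 kept their direction and side of the threshold, 147 lost and 95 gained the call, and 18 changed sign. Of the 54 members called, 11 were called the same way in all 17 alternatives, among them RPL12. Without trend or robust moderation 11 members rose and 1 fell, of which 6 large-subunit and 4 small-subunit genes rose, and 3686 genes were called in all. Scaling to the library total, to the total without ribosomal protein genes, or by quantiles left 2 members lower, and gave medians of 0.3718, 0.3831 and 0.3971 (large) and 0.3634, 0.3747 and 0.3682 (small); the first 2 moved the median of all genes to 0.08 and 0.09. The GC and length correction gave 18 large-subunit genes higher, or 33 with the replicate block added, and a small-subunit median of 0.1734 in both fits. The replicate block gave 66 members higher and 5 lower, with 1 small-subunit gene, RPS26, lower; replicate differences of the 2 groups correlated by 0.2654 over all genes tested and by 0.5898 over the members, but with 2 pairs the numbers are not shown to pair the cultures. Leaving out 1 library at a time gave 20 to 40 members higher and 1 to 4 lower, 10 to 25 large and 8 to 16 small higher, 0 to 1 small lower and 3593 to 5476 genes called; the lone library is then assumed to vary like the other group. Signs turned on the log2 scale, with no call at the turned value, for 8 genes. Leaving out 1 library at a time gave -0.5906 to 0.2658 for RPL17-C18orf32, -0.2502 to 0.0064 for RPL7A, -0.1107 to 0.2016 for RPS10-NUDT3, -0.0541 to 0.1183 for RPL14, -0.022 to 0.1624 for RPL35, -0.0182 to 0.3674 for RPS28 and -0.0007 to 0.0974 for RPS7. The GC and length correction, blocked or not, gave -0.0524 for RPL14, -0.0008 for RPL27A, -0.0556 for RPL35 and -0.0475 for RPS7, and adding pseudogenes gave 0.3333 for RPL7A. The cause of these changes was not tested. The edgeR and DESeq2 alternatives were not run.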
